A study of Mus musculus with 80 samples.

Results

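The AP-1 genes Fos, Fosb, Fosl2, Jun, Junb, Jund and Atf3 are described here in microglia of the Cx3cr1-NuTRAP mouse brain. They are 7 of the 16385 genes listed in either of the deposited tables, and were all found in both tables. They were taken by their gene symbols, from a list chosen with earlier results of these data known. All 7 passed the filter on low counts (more than 5 counts in every library of at least 1 group) in each of the 6 model fits. The mice carried Cx3cr1(Jung)-cre/Ert2+ and NuTRAP+, and tamoxifen was given at about 3 months of age (100 mg/kg, daily intraperitoneal injection) to all of them, so that every group shared the alleles and the induction. Recombination tags ribosomes with eGFP in cells that express Cx3cr1, which include border macrophages as well as microglia. RNA was read from the supernatant saved before the pull-down (Input) and from the ribosomes pulled down with anti-GFP (translating ribosome affinity purification, TRAP), in 40 Input and 40 TRAP libraries.

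The first comparison, of sorts, held tissue homogenized without dissociation (Tissue, n = 4), the suspension made by enzymatic and mechanical dissociation (Cell, n = 4, the same 4 mice as Tissue) and microglia sorted from such suspensions by CD11b magnetic beads (autoMACS, n = 4), by cartridge-based sorting (Tyto, n = 5), by magnetic beads and then the cartridge (autoMACS to Tyto, n = 3) and by droplet cytometry (FACSAria, n = 4). The second comparison, of cell preparations, held Tissue (n = 4, further libraries of the mice of the first Tissue group), the enzymatic suspension without transcription and translation inhibitors, Cell(-) (n = 4), the same with the inhibitors, Cell(+) (n = 4, the mice of Cell(-)), and mechanical dissociation at 4 °C in a Dounce homogenizer (Dounce, n = 4). Each n is the number of mice and holds for both fractions. The inhibitors were actinomycin D and triptolide, which stop transcription, and anisomycin, which stops translation. The comparisons ask which messages of isolated microglia arise while the cells are being prepared.

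AP-1 is a family of dimers of basic leucine zipper (bZIP) proteins. A Fos protein (Fos, Fosb, Fosl2) cannot pair with itself and binds DNA with a Jun partner (Jun, Junb, Jund), while Jun proteins also pair with each other and with ATF proteins such as Atf3. Fos, Fosb, Jun, Junb and Atf3 are immediate-early or stress-response genes, whose transcription starts within minutes of a stimulus from factors already present in the cell and whose messages are short-lived, whereas Jund is transcribed in many resting cells. In microglia these messages are widely used as signs of activation by handling.

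The last 150 bases before the annotated start of 6 of the genes are shown because the members differ in the letters found there while most of them moved together. They are RefSeq sequences on GRCm38.p6 (mm10), written 5′ to 3′ on the strand of the gene, and the capitals mark TGACG or its reverse complement, the core of the cyclic AMP response element through which CREB and ATF proteins act, and TGACATCA, the AP-1-like site. Jund is not printed because GENCODE places its transcript start downstream of the RefSeq start, but its RefSeq window is counted in the search. The RefSeq start of Fos lies a few bases upstream of the start in the deposited tables.
Fos: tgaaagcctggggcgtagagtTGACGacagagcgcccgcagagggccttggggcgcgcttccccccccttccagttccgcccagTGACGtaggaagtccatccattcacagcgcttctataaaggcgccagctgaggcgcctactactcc
Fosb: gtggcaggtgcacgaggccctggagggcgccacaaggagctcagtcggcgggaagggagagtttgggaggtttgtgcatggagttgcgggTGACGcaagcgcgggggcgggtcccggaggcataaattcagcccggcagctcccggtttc
Fosl2: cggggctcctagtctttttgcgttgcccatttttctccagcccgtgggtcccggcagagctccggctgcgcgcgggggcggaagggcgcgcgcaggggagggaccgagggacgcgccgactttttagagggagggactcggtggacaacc
Jun: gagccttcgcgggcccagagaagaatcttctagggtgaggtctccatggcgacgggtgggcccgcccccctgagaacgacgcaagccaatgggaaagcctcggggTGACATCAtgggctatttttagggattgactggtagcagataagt
Junb: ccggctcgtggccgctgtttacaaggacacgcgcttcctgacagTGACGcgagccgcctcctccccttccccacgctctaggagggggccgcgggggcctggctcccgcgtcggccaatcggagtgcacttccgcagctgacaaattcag
Atf3: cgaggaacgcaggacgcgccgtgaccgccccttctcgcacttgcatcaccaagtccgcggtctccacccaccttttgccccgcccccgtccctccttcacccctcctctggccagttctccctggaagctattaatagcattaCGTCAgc
The positions are chr12:85473740-85473889 (plus strand) for Fos, chr7:19310046-19310195 (minus) for Fosb, chr5:32136322-32136471 (plus) for Fosl2, chr4:95052223-95052372 (minus) for Jun, chr8:84978749-84978898 (minus) for Junb and chr1:191183334-191183483 (minus) for Atf3. Within the 250 bases before the start, searched on both strands in all 7 members and in 32851 windows of the same length, TGACG was found in 4 members (Fos, Fosb, Junb and Atf3) and in 17.8% of all windows. The full element TGACGTCA, which holds TGACG on both strands, was found in 0 members and in 1.55% of windows, and the AP-1 site TGAGTCA in 0 members and in 4.46%. TGACATCA, added to the search after the motifs had been listed, was found in Jun, 38 to 45 bases before the start, and in 2.93% of windows. TATAAA was found in Fos alone of the 7 members (12.4% of windows), CCAAT in Jun and Junb (33.8%), the NF-kB site in Fos, Fosb and Fosl2 (3.9%) and the serum response element core (CArG box) in 0 members (1.47%). A match of letters is a description of these windows and not a site shown to be bound. Sites further than 250 bases before the start were not searched, so a count of 0 does not show that a gene lacks the site.

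The libraries of the sort comparison held 7129464 to 20168116 counts (median 15211941) and those of the preparation comparison 2471448 to 14650287 (median 10179908), the Dounce-TRAP libraries being the shallowest (2471448 to 4724538). Levels are given as counts-per-million (CPM) after TMM normalization within each fraction of each comparison. A gene was called when edgeR's quasi-likelihood test gave a Benjamini-Hochberg adjusted p under 0.1 over all genes tested, and the fold was over 2. All 16 microglial markers, among them those that define the cells, were detected in every group, and their summed level rose from 10578 to 12674 CPM in Tissue-TRAP to 51163 to 54107 in Cell-TRAP and 59630 to 70749 in sorted TRAP libraries. In Cell(-)-TRAP it was 60739 to 68794 CPM, in Cell(+)-TRAP 64899 to 69095 and in Dounce-TRAP 52167 to 58631. Summed neuronal markers were 7077 to 8175 CPM in Tissue-TRAP and 143 to 376 in Cell-TRAP.

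In Tissue-TRAP, the pull-down from undissociated tissue, Jund dominated the AP-1 messages. These libraries also held the neuronal markers given above. In Tissue, TRAP differed from Input on the log2 scale by -0.03 for Jund, 0.13 for Jun, 0.42 for Junb and -0.17 for Fos. The difference was 0.21 for Fosb, 0.26 for Fosl2 and 1.03 for Atf3. How much of this makeup belongs to microglial ribosomes was not tested. Per kilobase of exon, the 7 members summed to 217 CPM per kb in Tissue-TRAP of the sort comparison (median, range 214 to 243), of which Jund held 66.4%, Jun 12.1%, Junb 11.5% and Fos 4.33% (medians over 4 mice). The order of the levels per kb was Jund above Junb and Jun, whose ranges overlapped, then Fos, and then Fosl2, Fosb and Atf3, whose neighbouring ranges overlapped. The separate Tissue-TRAP libraries of the preparation comparison gave the same order, with a summed median of 269 CPM per kb and 70.5% of it in Jund. The Jund shares rest on its GENCODE exon length (1668 bases), and a longer length would lower them.

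Dissociation into a cell suspension raised 6 of the 7 members on the ribosomes. In Cell-TRAP against Tissue-TRAP, Fos, Fosb, Jun, Junb, Jund and Atf3 were called higher, where 25.1% of all genes tested were called higher, and Fosl2 was not called. In 6 of the 7 members the Cell and Tissue libraries did not overlap, as in 77.2% of all genes. Within bulk RNA, fewer cells of a type and less RNA per cell cannot be told apart.

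Among the Fos genes, Fos, the prototype immediate-early gene of the family, stood at 35.3, 22.8, 18.8 and 21.4 CPM in Tissue-TRAP of mice 946, 947, 948 and 949 and at 3417, 3837, 2966 and 2888 CPM in their Cell-TRAP libraries. The lowest Cell library lay far above the highest Tissue library, and the level was 134-fold higher (log2 7.06 ± 0.20, SE; edgeR adjusted p = 4.75e-20). Fosb, which shares the Jun partners of Fos and has a long-lived splice form in neurons, rose from 26.7, 24.9, 16.8 and 25.1 CPM to 633, 577, 325 and 368 CPM, 20.4-fold (log2 4.35 ± 0.33, SE; edgeR adjusted p = 9.36e-12). Fosl2, a Fos protein induced later and more weakly than Fos in many cells, stood at 65.3, 49.5, 37.3 and 53.3 CPM in Tissue-TRAP and at 68.2, 54.5, 44.9 and 39.1 in Cell-TRAP. The Fosl2 groups overlapped, and the log2 difference was 0.01 with a 95% interval of -0.40 to 0.42 (edgeR adjusted p = 0.967).

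Among the Jun genes, Jun, the activating partner of Fos and the substrate of the JNK kinases, rose from 98.0, 86.3, 78.4 and 77.2 CPM in Tissue-TRAP to 4505, 4096, 3456 and 3407 CPM in Cell-TRAP, 45.5-fold (log2 5.51 ± 0.15, SE; edgeR adjusted p = 5.66e-20). Junb, which can oppose Jun on shared sites, rose from 64.9, 61.5, 55.5 and 57.7 CPM to 2571, 2112, 1803 and 1785 CPM, 34.5-fold (log2 5.11 ± 0.17, SE; edgeR adjusted p = 7.76e-19). In both genes the Tissue libraries lay within a narrow range and every Cell library lay far above it. Jund, the constitutive Jun gene, was the highest of the 7 per kb in tissue and rose least of the 6, from 258, 232, 245 and 250 CPM to 1253, 1569, 1269 and 1273 CPM, 5.44-fold (log2 2.44 ± 0.14, SE; edgeR adjusted p = 1.72e-14). Atf3, a stress-induced ATF protein that acts mainly as a repressor, was among the lowest of the 7 per kb in tissue, at 6.51, 5.34, 8.0 and 6.14 CPM, and stood at 1043, 938, 689 and 737 CPM in Cell-TRAP. The Atf3 difference was 130-fold (log2 7.02 ± 0.29, SE; edgeR adjusted p = 5.78e-17), close to that of Fos.

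**Figure D1:**
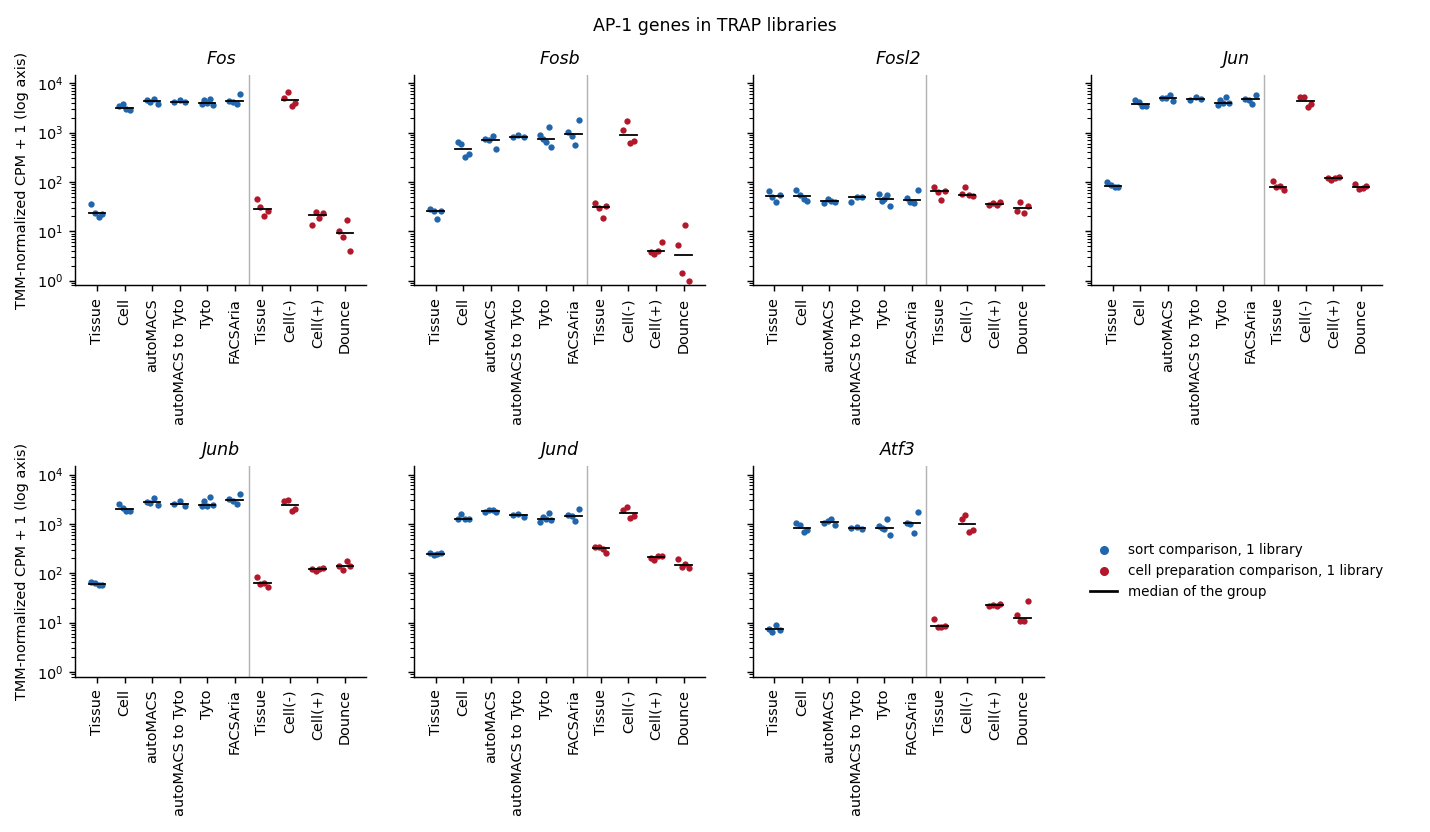
Level of each AP-1 gene in every TRAP library (CPM plus 1, log axis) by preparation, with the sort comparison in blue, the preparation comparison in red and the group median as a black bar. Fos, Fosb, Jun, Junb and Atf3 are high in Cell, Cell(-) and all 4 sorts and low in Tissue, Cell(+) and Dounce, Jund follows them over a smaller range, and Fosl2 stays between 22.4 and 79.6 CPM in every library.

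The cells behind the pull-down moved with this comparison. Beside the microglial markers, all 10 endothelial markers were called higher in Cell-TRAP than in Tissue-TRAP (median log2 2.69, summed 976 to 1049 CPM against 150 to 221), as were all 7 border macrophage markers (median 2.61, summed 915 to 2348 CPM against 170 to 219). In the 16 sorted TRAP libraries, where the members stood at the levels given below, summed endothelial markers were 82.1 to 180 CPM and border macrophage markers 662 to 2354 CPM. The part of these cells in the fold changes was not tested. When each library was scaled to its 16 microglial markers instead of by TMM, which lowered the median of all genes by 1.99 on the log2 scale, Cell-TRAP stood above Tissue-TRAP by 33.6-fold for Fos, 33.2-fold for Atf3, 11.5-fold for Jun, 8.7-fold for Junb and 5.12-fold for Fosb, and all 5 were still called. On that scale Jund was not called (log2 0.45), and Fosl2 was called lower (log2 -1.98, 3.95-fold). Per microglial marker transcript, then, the rise was smaller for each gene, and the direction for Fosl2 differed from the main value.

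The rise was measured again in other mice, in Cell(-)-TRAP of the preparation comparison. Cell(-)-TRAP stood at 5063, 6486, 3389 and 3942 CPM of Fos in mice 1361, 1362, 156 and 157, against 44.3, 30.7, 19.3 and 24.6 CPM in Tissue-TRAP, and 6 members were again called higher, where 22.3% of all genes were. The folds were 158 for Fos (log2 7.31 ± 0.36, SE; edgeR adjusted p = 2.57e-12), 128 for Atf3, 52.6 for Jun, 38.3 for Junb, 35.6 for Fosb and 5.54 for Jund. Fosl2 differed by -0.07 on the log2 scale, with a 95% interval of -0.46 to 0.33 (edgeR adjusted p = 0.761). With scaling to microglial markers the folds were 39.7 for Fos, 32.3 for Atf3, 13.2 for Jun, 9.66 for Junb and 8.94 for Fosb, while Jund was not called (log2 0.48) and Fosl2 lay lower (log2 -2.06). The Tissue libraries of both comparisons came from the same 4 mice, so the repeat is independent in the cell suspensions and not in the tissue.

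After sorting, no member differed on the ribosomes by over 2-fold from the unsorted suspension. Sorted and unsorted libraries came from different mice, so sorting and mouse cannot be told apart. Against Tissue-TRAP, the mean of the 4 sorts was called higher for 6 members (25.9% of all genes were), by 176-fold for Fos (log2 7.46 ± 0.19, SE), 148-fold for Atf3, 55.9-fold for Jun, 46.6-fold for Junb, 36-fold for Fosb and 6.23-fold for Jund, while Fosl2 differed by -0.21 (log2, edgeR adjusted p = 0.195). On the microglial marker scale Jund was not called there (log2 0.42) and Fosl2 lay lower (log2 -2.44). Against Cell-TRAP, 0 members were called, where 24.4% of all genes were called in either direction, and in 0 of the 7 were the sorted and unsorted libraries apart, as they were in 24.4% of all genes. At an unadjusted p under 0.05, 4 members passed the edgeR test, and the DESeq2 test also called 0.

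The 16 sorted TRAP libraries held Fos at 3571 to 5973 CPM (median 4174), Fosb at 468 to 1779 (808), Fosl2 at 32 to 68 (41.6), Jun at 3586 to 5859 (4740), Junb at 2307 to 3985 (2734), Jund at 1092 to 2041 (1501) and Atf3 at 583 to 1755 (937). Under the limit of 2-fold, 4 members had an adjusted p under 0.1 against Cell-TRAP by edgeR, Fosb (log2 0.82, adjusted p = 0.00523), Junb (0.43, 0.00266), Fos (0.40, 0.00728) and Jun (0.30, 0.0179). The other 3 did not pass, with Atf3 at 0.19 (95% interval -0.17 to 0.55, adjusted p = 0.375), Jund at 0.19 (0.118) and Fosl2 at -0.22 (0.239). Fosb was called (log2 1.00) when the Cell library of mouse 946 was left out. Between the 4 sorts, 0 members were called by an F test in edgeR or by DESeq2, where 4.17% of all genes were called by edgeR, and 1 had an unadjusted p under 0.05. Jund had an adjusted p of 0.0479 there by edgeR with a largest difference of 0.45 on the log2 scale, its median being 1821 CPM in autoMACS, 1487 in autoMACS to Tyto, 1473 in FACSAria and 1280 in Tyto. The adjusted p of the other 6 lay between 0.319 and 0.848. Several mice gave a library to more than 1 sort, which the test does not use.

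With inhibitors of transcription and translation present during the enzymatic dissociation, the AP-1 messages were low. In Cell(+)-TRAP against Cell(-)-TRAP, 6 of the 7 members were called lower, where 0.632% of all genes tested (93 of 14723) were called lower, and in all 7 the groups did not overlap, as in 12.6% of all genes. Summed over the 7 members, the level per kb was 239 CPM per kb in Cell(+)-TRAP (median, range 218 to 251) against 5978 (4458 to 8050) in Cell(-)-TRAP of the same 4 mice. The microglial, neuronal and endothelial markers held 0 called genes in this comparison by edgeR, with median log2 differences of 0.09, 0.01 and 0.15, and 2, 0 and 0 of them had an unadjusted p under 0.05. Of the oligodendrocytic, astrocytic and border macrophage markers 0 were called as well. In edgeR, 6 of 10 oligodendrocytic, 1 of 10 astrocytic and 0 of 7 border macrophage markers had an unadjusted p under 0.05. The part of these cells in the AP-1 falls was not tested.

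Fosb had the largest fitted fold in this comparison, falling to 2.88, 2.50, 2.98 and 5.15 CPM in Cell(+)-TRAP of mice 1361, 1362, 156 and 157 from 1105, 1696, 609 and 685 CPM in Cell(-)-TRAP, 303-fold (log2 -8.25 ± 0.56, SE; edgeR adjusted p = 1.13e-08). Fos stood at 12.7, 23.6, 17.6 and 22.5 CPM in Cell(+)-TRAP, 248-fold below the Cell(-) level given above (log2 -7.95 ± 0.37, SE; edgeR adjusted p = 5.01e-11). Both genes ended within or below the range of Tissue-TRAP. Fosl2 was 33.2, 35.9, 32.9 and 38.5 CPM in Cell(+)-TRAP and 54.6, 79.6, 52.5 and 49.7 in Cell(-)-TRAP. It was lower in each of the 4 mice, yet the fold of 1.68 was under the limit and the gene was not called (log2 -0.75 ± 0.19, SE; edgeR adjusted p = 0.0568).

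Jun fell from 5138, 5219, 3275 and 3723 CPM in Cell(-)-TRAP to 119, 109, 120 and 126 CPM in Cell(+)-TRAP, 36.6-fold (log2 -5.19 ± 0.17, SE; edgeR adjusted p = 5.48e-13). Junb fell from 2887, 3085, 1824 and 2021 CPM to 123, 110, 121 and 128 CPM, 20.4-fold (log2 -4.35 ± 0.19, SE; edgeR adjusted p = 1.67e-11). With the inhibitors the 4 mice lay close together in both genes. Jund fell from 1868, 2234, 1289 and 1470 CPM to 206, 186, 222 and 219 CPM, 8.24-fold (log2 -3.04 ± 0.17, SE; edgeR adjusted p = 5.78e-10). Atf3 fell from 1234, 1498, 694 and 741 CPM to 21.1, 21.5, 21.0 and 22.8 CPM, 48.2-fold (log2 -5.59 ± 0.29, SE; edgeR adjusted p = 2.37e-10). The Cell(+)-TRAP libraries of Jund lay below all Tissue-TRAP libraries of the preparation comparison.

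Within each mouse, the share of the Cell(-)-TRAP level left in Cell(+)-TRAP was 0.251 to 0.571% for Fos (median 0.442%), 0.147 to 0.752% for Fosb (0.375%), 1.44 to 3.08% for Atf3 (2.37%), 2.09 to 3.66% for Jun (2.85%), 3.57 to 6.63% for Junb (5.3%), 8.33 to 17.2% for Jund (13%) and 45.1 to 77.5% for Fosl2 (61.7%). The 4 mice thus gave the same direction in every gene. Scaling to microglial markers left the same 6 genes called, with Fos 261-fold lower.

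**Figure D2:**
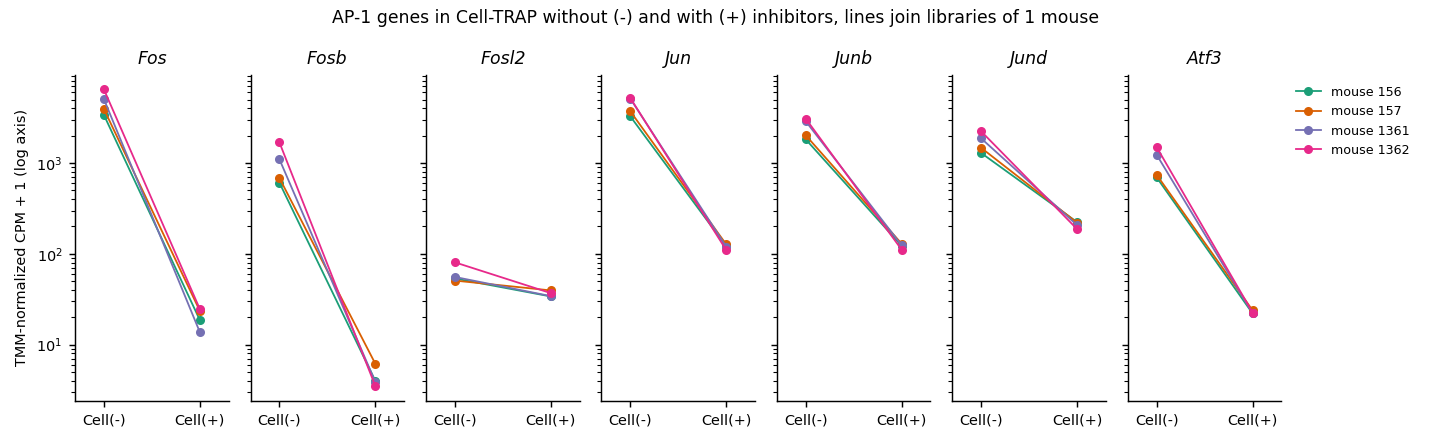
Level of each AP-1 gene (CPM plus 1, log axis) in the Cell(-) and Cell(+) TRAP libraries of mice 1361, 1362, 156 and 157, with a line joining the libraries of 1 mouse. All lines fall, Fos, Fosb, Jun, Junb and Atf3 by over 10-fold and Fosl2 by the least, and mouse 1362 starts highest in every gene.

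In TRAP the spread between mice was wider without the inhibitors than with them. In Cell(-)-TRAP, mice 1361 and 1362 both lay above mice 156 and 157 in 7 of 7 members, and mouse 1362 was the highest in 7 of 7. In Cell(+)-TRAP of these mice the former order held in 0 of 7 members. The highest Cell(-)-TRAP library exceeded the lowest 1.59- to 2.78-fold, depending on the gene, and in Cell(+)-TRAP 1.09- to 2.06-fold. In Cell(-)-Input, mice 1361 and 1362 lay above the other 2 in 5 of 7 members, the exceptions being Fosl2 and Jun, and mouse 1362 was again the highest in 7 of 7. The Input spread was not wider without the inhibitors in every gene, since the highest library exceeded the lowest 4.1-fold with and 2.65-fold without them for Fosb, and 1.77-fold with and 1.38-fold without them for Fosl2. The members are read from the same libraries and are not separate observations of a mouse, and the difference between the mice was not tested.

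Mechanical dissociation in the cold left all 7 members lower than the enzymatic suspension. In Dounce-TRAP against Cell(-)-TRAP, 7 members were called lower, where 8.02% of all genes were, and in all 7 the groups did not overlap (41.6% of all genes). Other cells also differed between these groups, since all 10 endothelial markers were lower in Dounce (summed 61.9 to 97.4 CPM against 628 to 1423) and 10 of 11 neuronal markers were higher (summed 1444 to 2320 CPM against 118 to 248), while 0 of 16 microglial markers were called by edgeR (11 at an unadjusted p under 0.05). The paper also reports the lowest average RNA integrity in Dounce-Input, for which an entire brain was needed. In both fractions it found coverage more biased to the downstream end of genes in Tissue and Dounce than in Cell(-) and Cell(+). The part of these cells, of RNA integrity and of coverage in the AP-1 differences was not tested.

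Fos was 9.33, 6.79, 16 and 2.98 CPM in Dounce-TRAP of mice 179, 180, 181 and 182, all below the lowest Tissue-TRAP library, and 559-fold lower than in Cell(-)-TRAP (log2 -9.13 ± 0.41, SE; edgeR adjusted p = 1.25e-11). Fosb was 4.27, 0.399, 12.7 and 0 CPM, from 16, 2, 34 and 0 counts, where the count of 0 in mouse 182 allows up to 0.893 CPM (3 counts, counting error only), and lay 277-fold lower (log2 -8.11 ± 0.59, SE; edgeR adjusted p = 3.92e-09). The Fosb values thus rested on few counts, and the level was not resolved between these 4 libraries. Fosl2 was 25.3, 37.3, 22.4 and 31.6 CPM, just past the limit at 2.01-fold lower (log2 -1.01 ± 0.20, SE; edgeR adjusted p = 0.000368). This call was lost without the Cell(-) library of mouse 1362 (log2 -0.83), without Dounce mouse 179 (-0.94) or 181 (-0.91), when only the groups compared were fitted (-0.98), with at least 10 counts asked of every library (-0.90) and with scaling to microglial markers (-0.73).

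Jun was 89.3, 72.5, 75.7 and 80.4 CPM in Dounce-TRAP, 54.6-fold below Cell(-)-TRAP (log2 -5.77 ± 0.17, SE; edgeR adjusted p = 1.66e-13). Junb was 139, 117, 175 and 142 CPM, 17.2-fold lower, and Jund was 196, 134, 153 and 126 CPM, 11.3-fold lower. Atf3 was 13.3, 9.58, 9.69 and 26.2 CPM, 71.4-fold lower. Per kb, Junb lay below Jun in each Cell(-)-TRAP library and above it in each Dounce-TRAP library.

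**Figure D3:**
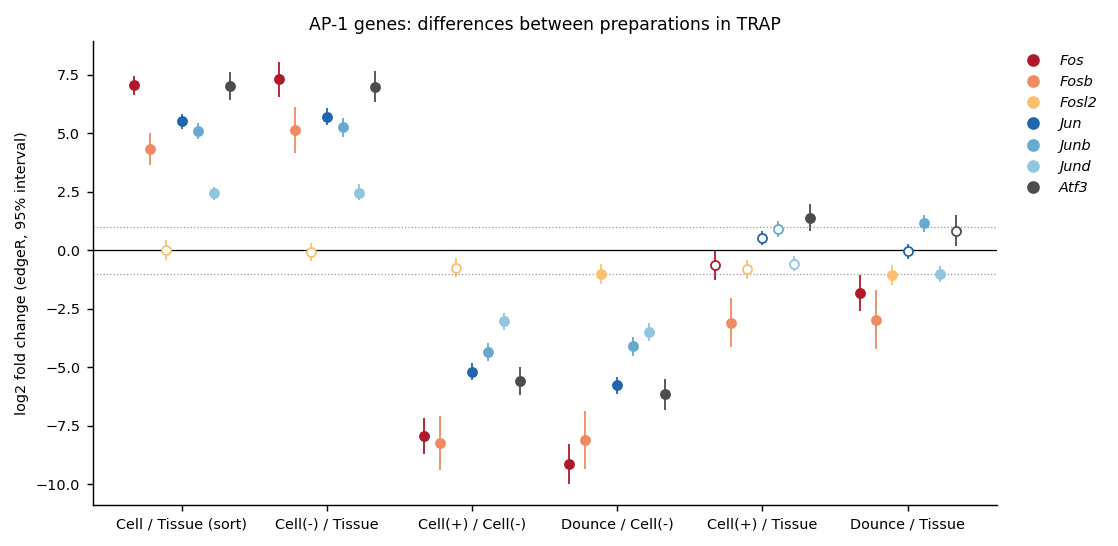
Log2 fold change of each AP-1 gene in 6 TRAP comparisons with its 95% interval from the edgeR fit, filled where the gene was called (adjusted p under 0.1 and over 2-fold, the dotted lines at -1 and 1). Cell and Cell(-) lie above Tissue for the genes other than Fosl2. Cell(+) and Dounce lie below Cell(-) for every gene, with Fosl2 nearest to 0 and filled only in Dounce. Against Tissue, Cell(+) and Dounce lie within 2 log2 units of 0 except for Fosb.

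Cell(+) and Dounce were then set against undissociated tissue. In Cell(+)-TRAP against Tissue-TRAP, 2 members were called, where 52.8% of all genes were called in either direction. Atf3 was higher, at 21.0 to 22.8 CPM against 10.6, 7.03, 7.20 and 7.64 (2.65-fold, log2 1.40 ± 0.28, SE; edgeR adjusted p = 0.000169), and Fosb was lower (35.6, 29.2, 17.8 and 32.1 CPM in Tissue-TRAP, 8.52-fold, log2 -3.09 ± 0.49, SE; edgeR adjusted p = 1.73e-05). Below the limit of 2-fold, Junb (log2 0.91) and Jun (0.52) lay above Tissue, and Fosl2 (-0.82), Fos (-0.64) and Jund (-0.57) below it. Junb was called (log2 1.06) when the Tissue library of mouse 946 was left out, and Fosl2 (-1.03, edgeR adjusted p = 8.27e-05) when at least 10 counts were asked of every library. The scale decided these directions for 3 genes, since with scaling to microglial markers Jun (log2 -1.54), Junb (-1.15) and Atf3 (-0.66) lay below Tissue, as did Fos (-2.71), Fosb (-5.17), Fosl2 (-2.89) and Jund (-2.63), and 6 members, all but Atf3, were called lower.

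In Dounce-TRAP against Tissue-TRAP, 5 members were called, where 50.3% of all genes were. Junb was higher (82.4, 60.3, 62.4 and 51.2 CPM in Tissue-TRAP, 2.23-fold, log2 1.16 ± 0.17, SE; edgeR adjusted p = 8.77e-06), and Fosb (7.78-fold), Fos (3.53-fold), Fosl2 (2.10-fold) and Jund (2.03-fold) were lower. Fos was lower by 1.82 on the log2 scale (fitted difference -1.82 ± 0.36, SE; edgeR adjusted p = 0.000202). The calls of Fosl2 and Jund stood close to the limit, with Fosl2 at -0.98 without Dounce mouse 181 and -0.93 without Tissue mouse 946, and Jund between -0.95 and -0.99 without Dounce mouse 180 or 182 or Tissue mouse 946 or 947. Without Tissue mouse 946, 3 members were called. Atf3 (log2 0.84, adjusted p = 0.0227) was not called except without Dounce mouse 180 (1.02), and Jun differed by -0.05 (adjusted p = 0.752). With scaling to microglial markers Junb (log2 -0.53) and Atf3 (-0.88) lay below Tissue and were not called, and Fos (-3.51), Fosb (-4.65), Fosl2 (-2.79), Jun (-1.76) and Jund (-2.73) were called lower.

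Between the 2 preparations that kept the messages low, 1 member was called in Dounce-TRAP against Cell(+)-TRAP, where 29.1% of all genes were. Fos was 2.26-fold lower in Dounce (log2 -1.18 ± 0.37, SE; edgeR adjusted p = 0.0114), although the ranges of 2.98 to 16 and 12.7 to 23.6 CPM overlapped, and it was not called without Dounce mouse 182 (log2 -0.91). Jun was lower by less than 2-fold (log2 -0.58, adjusted p = 0.00287).

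Levels also rose with dissociation in the Input fraction, the poly(A) RNA of the lysate supernatant saved before the pull-down. In Cell-Input against Tissue-Input, 6 members were called higher, where 28.5% of all genes were, with folds of 51.8 for Atf3, 23.2 for Fos, 12.2 for Jun, 10.7 for Junb, 6.74 for Fosb and 2.20 for Jund. Fos stood at 37.8, 44, 21.4 and 23.8 CPM in Tissue-Input and at 701, 932, 677 and 637 in Cell-Input of mice 946 to 949 (log2 4.54 ± 0.22, SE; edgeR adjusted p = 1.45e-14). Fosl2 was lower by less than 2-fold (log2 -0.75, adjusted p = 0.00862). Jund was no longer called with mouse as a block (log2 1.00). In Cell(-)-Input against Tissue-Input, 6 members were again called higher, where 25.6% of all genes were.

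Sorting was accompanied by higher levels in the Input fraction, again in other mice than those of Cell. The mean of the 4 sorts was called higher than Cell-Input for 6 members, where 51.8% of all genes were called in either direction, by 2.72 for Atf3, 2.62 for Fosb, 2.46 for Junb, 2.38 for Fos, 2.29 for Jun and 2.13 for Jund on the log2 scale, and Fosl2 by 0.76 was not over 2-fold (edgeR adjusted p = 0.00141). Fos, for example, was 3130 to 5696 CPM in 16 sorted Input libraries (median 3751), above all 4 Cell-Input libraries and near its level in sorted TRAP. Summed microglial markers rose beside it, from 8205 to 10617 CPM in Cell-Input to 36362 to 67653 in sorted Input, and their part in the rise was not tested. Between the 4 sorts, 0 members were called in Input by edgeR or by DESeq2, where 7.42% of all genes were called by edgeR, and 1 had an unadjusted p under 0.05.

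With the inhibitors, 6 members were called lower in Cell(+)-Input than in Cell(-)-Input, where 0.311% of all genes (49 of 15753) were called lower. Fos fell from 1079, 1732, 848 and 1071 CPM to 15.2, 20.2, 11.7 and 15.8 CPM, 75-fold (log2 -6.23 ± 0.31, SE; edgeR adjusted p = 1.76e-10), Fosb 58.6-fold, Atf3 23.0-fold, Junb 15.9-fold, Jun 12.0-fold and Jund 2.91-fold. Fosl2 was 40.1, 49.5, 36 and 41.7 CPM without and 43.9, 42.6, 26.4 and 46.8 with the inhibitors, with overlapping groups (log2 -0.07). The share of the Cell(-)-Input level left in the same mouse had a median of 1.39% for Fos, 1.44% for Fosb, 4.52% for Atf3, 6.21% for Junb, 8.13% for Jun, 35.1% for Jund and 97.8% for Fosl2.

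In Dounce-Input against Cell(-)-Input, 6 members were called lower, where 28.1% of all genes were, with folds of 107 for Atf3, 52.6 for Fos, 38.4 for Jun, 22.9 for Fosb, 9.83 for Jund and a log2 difference of -4.32 for Junb, and Fosl2 differed by 0.12 (log2). Against Tissue-Input, 3 members were called in Cell(+)-Input (45.6% of all genes were called in either direction), Atf3 higher (5.36-fold) and Fosb (5.64-fold) and Fos (2.21-fold) lower. Fos was lost there without Tissue mouse 946 (log2 -0.92). In Dounce-Input, 3 members were called against Tissue-Input (50.1% of all genes were), Jund (4.12-fold), Jun (2.93-fold) and Fosb (2.20-fold), all lower. Fosb was lost without Dounce mouse 181 (log2 -0.99), and Junb was added without Dounce mouse 179 (-1.05) or Tissue mouse 948 (-1.0). Against Cell(+)-Input, 4 members were called in Dounce-Input (56.9% of all genes were), Atf3 (4.67-fold), Jund (3.38-fold) and Jun (3.20-fold) lower and Fosb (2.56-fold) higher. Summed neuronal markers were 4717 to 5115 CPM in Dounce-Input and microglial markers 2881 to 4429, against 12876 to 17973 microglial CPM in Cell(+)-Input, and the part of this makeup in the Input values was not tested.

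TRAP against Input sets the messages on the ribosomes of the tagged cells against those of the whole preparation. The difference holds the enrichment of tagged cells as well as any loading of ribosomes, which were not told apart. In Tissue, 1 member was called, where 11.1% of all genes were, Atf3 at 2.04-fold higher in TRAP (log2 1.03 ± 0.33, SE; edgeR adjusted p = 0.0144), a call lost without mouse 948 (0.71) or 949 (0.78) and under 3 other settings. In Cell, all 7 members were called higher in TRAP, where 47.6% of all genes were called in either direction, by 5.44-fold for Atf3, 5.42-fold for Fos, 4.57-fold for Junb, 4.33-fold for Jun, 3.70-fold for Fosb, 2.57-fold for Jund and 2.15-fold for Fosl2. Summed microglial markers were also higher in Cell-TRAP than in Cell-Input, at the levels given above. Their part in these folds was not tested. Fosl2 and Jund were not called with the size factors of DESeq2 (log2 0.70 and 0.96), which lowered the median of all genes by 0.41 there, nor with at least 10 counts asked of every library (0.65 and 0.90). The change from Tissue to Cell was larger in TRAP than in Input for 6 members, where that difference was called for 35.3% of all genes, with log2 differences of the change of 2.61 for Fos, 1.99 for Jun, 1.77 for Junb, 1.68 for Fosb, 1.41 for Atf3 and 1.39 for Jund. Atf3 was not called there (log2 0.69) without Tissue mouse 947.

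In sorted microglia, where most cells carry the tag, 0 members were called between TRAP and Input by edgeR, where 18.9% of all genes were, and 3 had an unadjusted p under 0.05. The furthest from 0 was Jund, 1.72-fold lower in TRAP (log2 -0.78, edgeR adjusted p = 1.75e-12). In Cell(-), 5 members were called higher in TRAP, where 47.3% of all genes were called in either direction, Fos (log2 2.03), Junb (1.91), Atf3 (1.89), Jun (1.82) and Fosb (1.74). Jund joined them when only the groups compared were fitted (log2 1.18, edgeR adjusted p = 0.000117). With mouse as a block in such a fit it was also called (log2 1.16, edgeR adjusted p = 2.87e-06). The median of all genes there was -0.42 in the main fit and 0.02 with only the groups compared. In Cell(+), 1 member was called, where 45.6% of all genes were, Junb at 2.90-fold higher in TRAP (log2 1.54, adjusted p = 2.87e-08). Atf3 was the second when only the groups compared were fitted (log2 1.10, edgeR adjusted p = 2.86e-05). With mouse as a block in such a fit it was called too (log2 1.11, edgeR adjusted p = 7.79e-06).

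In Dounce the members lay on both sides of an equal level in TRAP and Input. There 5 members were called, where 47.5% of all genes were, with Atf3 (7.06-fold), Junb (5.55-fold) and Jun (3.14-fold) higher in TRAP and Fos (log2 -1.03, adjusted p = 0.0151) and Fosb (log2 -1.52, adjusted p = 0.0262) lower in TRAP. The calls of Fos and Fosb were fragile. Both were lost without mouse 180 (log2 -0.78 and -0.85), which left 3 members, and when only the groups compared were fitted (-0.95 and -1.30), and that of Fos also without mouse 179 (-0.91) or 182 (-0.93). Jund was called with mouse as a block (log2 1.00, adjusted p = 8.83e-06). Fos was 29.9, 28.3, 16.7 and 13.3 CPM in Dounce-Input, beside 9.33, 6.79, 16 and 2.98 in the TRAP libraries of the same mice. The Dounce against Tissue change differed between TRAP and Input for 5 members, where it did for 30.1% of all genes, by 2.20 for Junb, 1.65 for Jun, 1.17 for Jund, -1.03 for Fos and -1.66 for Fosb on the log2 scale. Fos and Fosb were both lost there without Dounce mouse 179, 180 or 182 or Tissue mouse 946 or 949, and Fos also without Tissue mouse 947, and 3 members were left without Dounce mouse 180 or 182 or Tissue mouse 946 or 949. Without Dounce mouse 179 Atf3 was called (log2 1.45). Jund was lost with DESeq2 size factors (0.97), with at least 10 counts asked of every library (0.85) and without Dounce mouse 181 (0.91).

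The effect of the inhibitors also differed between the fractions. The Cell(+) against Cell(-) change was larger in TRAP than in Input for 2 members, where the difference was called for 0.145% of all genes (23 of 15894), Jun (log2 difference -1.62, edgeR adjusted p = 1.48e-05) and Jund (-1.52, adjusted p = 5.44e-05). Input also holds RNA of untagged cells, whose part in this was not tested. With mouse as a block 5 members were called, Fos (-1.73, adjusted p = 0.000794), Fosb (-2.34, adjusted p = 0.0279) and Atf3 (-1.05, adjusted p = 0.0769) being added. Fos was also added when only the groups compared were fitted, without the block (-1.73, edgeR adjusted p = 0.0422). The same held with DESeq2 size factors (-1.74, edgeR adjusted p = 0.0984) and with at least 10 counts asked of every library (-1.72, edgeR adjusted p = 0.0719). Junb differed by -0.38, with a 95% interval of -0.92 to 0.17.

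**Figure D4:**
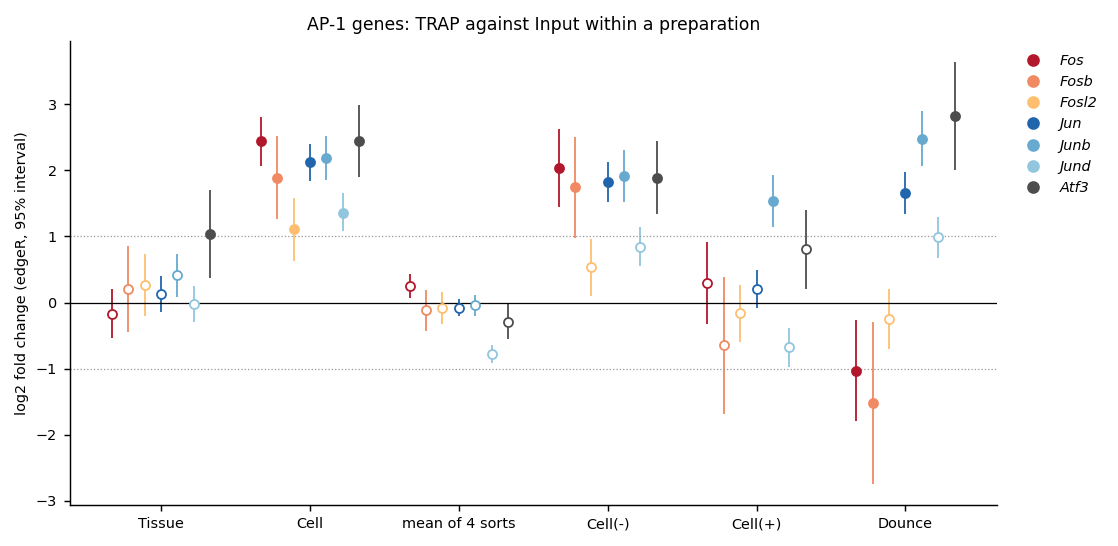
Log2 fold change of TRAP against Input for each AP-1 gene in 6 preparations with its 95% interval from the edgeR fit, filled where called (adjusted p under 0.1 and over 2-fold). The genes lie above 0 in Cell and Cell(-), in Tissue Atf3 alone is filled, in the mean of the 4 sorts no point is, and in Dounce Atf3, Junb and Jun lie above 0 while Fos and Fosb lie below it.

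The makeup of the AP-1 messages changed with their sum. In Cell-TRAP the 7 members summed to 4787 CPM per kb (median), and in sorted TRAP to 5212 in Tyto, 5663 in autoMACS to Tyto, 6116 in FACSAria and 6322 in autoMACS. The median share of Fos rose from 4.33% of the sum in Tissue-TRAP to 29.3% in Cell-TRAP and that of Jun from 12.1% to 25.3%, while that of Jund went from 66.4% to 17.8%. In Cell(-)-TRAP Fos held 32.7%, Jun 23.0%, Junb 17.6% and Jund 17.0%. In Cell(+)-TRAP Jund again led with 52.6%, followed by Junb with 22.1%, and Fos held 3.43%. In Dounce-TRAP, at a sum of 193 CPM per kb, Jund held 46.4%, Junb 32.6% and Fos 1.78%. Jund was divided by its GENCODE exon length of 1668 bases, while the deposited gene starts further upstream (chr8:70697739-70700616). A longer length would lower the level per kb and the share of Jund. In Dounce-TRAP the medians of Jund (143 CPM) and Junb (140 CPM) were close before the division. Their order per kb there rests on the lengths used. Per kb at these lengths, Fos, Jun, Junb and Jund were the upper 4 genes in Cell and Cell(-), with overlapping ranges between neighbours, followed without overlap by Atf3, Fosb and Fosl2. In Cell(+) the order was Jund, Junb, Jun, then Atf3 and Fos with overlapping ranges, then Fosl2 and Fosb.

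**Figure D5:**
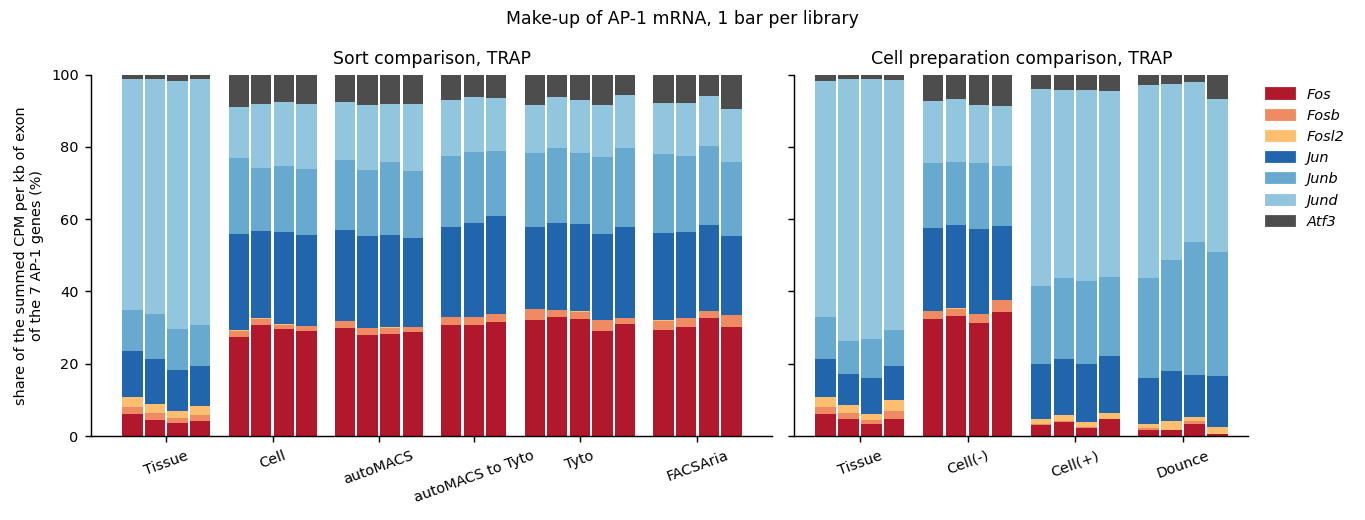
Share of each AP-1 gene in the summed level of all 7 (CPM per kb of exon, in percent) in every TRAP library, as stacked bars in the order of the preparations. With the GENCODE exon lengths used, Jund is the largest part of each Tissue, Cell(+) and Dounce bar, and Fos is a larger part than Jund in each Cell, Cell(-) and sorted bar. A longer length for Jund would lower its part.

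The other genes of the pathway are given by list. In Cell-TRAP against Tissue-TRAP 25.1% of all genes were called higher and 29.3% lower, in Cell(+)-TRAP against Cell(-)-TRAP 0.00679% (1 gene) higher and 0.632% lower, and in Dounce-TRAP against Cell(-)-TRAP 20.7% higher and 8.02% lower. Of 18 further AP-1 and related bZIP factors, 17 were tested, and in Cell-TRAP against Tissue-TRAP 12 rose and 1 fell (median log2 1.23, with the median of all genes at -0.01). Among the largest were Maf (2.73), a factor of macrophages, Atf7 (2.64), a binding partner of Jun proteins, and Batf2 (2.36 ± 0.52, SE). Batf2 was low in both groups, at 0.223 to 0.496 CPM in Tissue-TRAP and 0.785 to 3.92 in Cell-TRAP. Atf7 was 1.11 to 2.48 CPM in Tissue-TRAP and 11.2 to 12.1 in Cell-TRAP. The 1 that fell was Atf5 (-1.05), named after its value was seen. Microglial markers rose in the same comparison (14 of 16 called, median 1.95), and their part in these rises was not tested. In Cell(+)-TRAP against Cell(-)-TRAP, 0 of the 17 were called by edgeR (median -0.06, range -0.64 to 0.31), and 2 had an unadjusted p under 0.05. In Dounce-TRAP against Cell(-)-TRAP, 2 of the 17 fell and 0 rose, Maff (-3.59) and Atf5 (-1.41), both named after their values were seen.

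The MAP kinases that act upstream of AP-1 moved in both directions with dissociation, 7 rising and 5 falling of 18 (median log2 0.09). The largest were Mapk10, the JNK gene of neurons (-4.98), Map3k8 (3.65), Mapk11 (-3.64) and Map3k1 (2.83), and all 11 tested neuronal markers fell beside them (median -4.99). With the inhibitors 0 of the 18 were called by edgeR (median -0.02, 2 at an unadjusted p under 0.05), and Dounce against Cell(-) changed 4, Mapk11 (4.81) and Mapk10 (2.83) higher and Map3k8 (-1.53) and Mapk3 (-1.24) lower, named after their values were seen. Of serum response factor and its cofactors, which switch on Fos through the serum response element, Elk3 (2.19) rose and Mkl2 (-2.43) and Elk1 (-1.94) fell of 6 with dissociation, and 0 of 6 were called by edgeR with the inhibitors (median -0.04, 0 at an unadjusted p under 0.05) or in Dounce against Cell(-) (median -0.16, 3 at an unadjusted p under 0.05).

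Of 13 textbook AP-1 target genes, 11 were tested in Cell-TRAP against Tissue-TRAP, and 7 rose and 0 fell (median log2 2.02). Among the largest were Ccl2, a monocyte chemokine (7.10), the cytokine Il6 (4.03) and Plaur, the urokinase receptor (3.06). With the inhibitors 2 of 10 fell, among them Ccl2 (log2 -4.79 ± 0.46, SE; edgeR adjusted p = 2e-06), and the median of the 10 was -0.26. Ccl2 was 46.1 to 115 CPM in Cell(-)-TRAP, 2.24 to 3.87 in Cell(+)-TRAP, 1.79 to 15.7 in Dounce-TRAP and 0.18 to 1.20 in Tissue-TRAP. Il6, at 3.63 to 6.73 CPM in Cell(-)-TRAP and 3.02 to 7.41 in Cell(+)-TRAP, overlapped between them. In Cell(+)-TRAP against Tissue-TRAP, 5 of 10 were called higher and 1 lower, where 21.6% of all genes were called higher and 31.2% lower, among them Plaur (3.22), Il6 (2.69) and Ccl2 (2.23). All 16 microglial markers were called higher in that comparison (median 2.01, range 1.07 to 3.87), and scaling to them lowered the median of all genes by 2.06. In Dounce-TRAP against Cell(-)-TRAP 4 of 10 were lower, among them Ccl2 (-3.95), Plaur (-1.71) and Il6 (-1.03), and 1 was higher, Vegfa (1.85), named after its value was seen.

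Across the 16 TRAP libraries of the preparation comparison, 6 members followed one another closely, with Pearson r of log2(CPM + 1) between 0.811 and 0.988 for pairs without Fosl2 and between 0.300 and 0.664 for pairs with it. The genes outside the family most like each member were Ier3 (r = 0.986), Dusp1 (0.983) and Ier2 (0.978) for Fos, Egr1 (0.967), Ier3 (0.934) and Cited2 (0.920) for Fosb, and Egr3 (0.899), Hspa8 (0.893) and Ubqln2 (0.867) for Fosl2. For Jun they were Ier2 (0.994), Dusp1 (0.989) and Ier3 (0.984), for Junb Hist1h1c (0.986), Ier5 (0.979) and Ccl4 (0.977), for Jund Ier3 (0.981), Egr1 (0.978) and Cited2 (0.973), and for Atf3 Csrnp1 (0.992), Hist1h1c (0.990) and Ccl7 (0.983). The 16 points share the 4 preparations, and 4 of the mice gave 2 libraries each, so the coefficients describe how alike the levels per preparation are.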

How the data were processed

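RNA-seq was measured in Input and TRAP fractions of Cx3cr1-NuTRAP mouse brain. Per the study's methods, the authors made stranded poly(A) libraries, aligned reads to mm10 and counted genes in Strand NGS with duplicates removed. The raw columns they deposited hold expected counts that are not whole (35.8% of values were whole in the sort table and 23.6% in the preparation table), which were rounded here. The deposited log2 columns, normalized with DESeq2 and baselined by the authors, were not used (48 and 32 columns). In both tables, 23 gene symbols that had turned into dates were restored. The AP-1 members and the gene lists were chosen with earlier results of these data known.

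Samples were grouped by the labels. Genes with more than 5 counts in every library of at least 1 group were kept, and edgeR 4.0.16 (limma 3.58.1, R 4.3.3) was run as a quasi-likelihood test with TMM normalization and group as the only term, in 6 fits with Benjamini-Hochberg adjustment over all genes tested (14723 to 15894 genes a fit). Levels are TMM-normalized CPM computed here, and levels per kb use merged GENCODE exon lengths on mm10. For Jund this length leaves out the part of the deposited gene upstream of the GENCODE start. No pairs of libraries agreed within sampling noise. Scripts were tested on simulated data. The total counts per library limit the precision of low genes such as Fosb in Dounce-TRAP.

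Equal numbers mark libraries of the same mouse in Cell and Tissue, in Cell(-) and Cell(+) and in TRAP and Input. Deviations from the group means had a mean correlation of 0.04 to 0.48 between libraries of the same mouse. Between those of other mice it was -0.16 to -0.01. The second range is nearly fixed by the first, because deviations within a group cancel, and is no separate contrast. Fits with mouse as a block, which held only the groups compared, were an alternative. Other alternatives were DESeq2 1.42.0 size factors and its test, no filter, at least 10 counts in every library, only the groups compared, scaling to 16 microglial markers, and leaving out each library. In the fits of both fractions, the TRAP and Input libraries of a mouse in a preparation were left out together. Other genes were named by rule, as the list members with the largest changes in Cell-TRAP against Tissue-TRAP or Cell(+)-TRAP against Cell(-)-TRAP (at most 4 a list) and the 3 genes most correlated with each member. Some genes that the rule names are counted in their lists and not reported singly here. Figures were drawn with matplotlib 3.10.9.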

Additional observations from a re-analysis of the deposited data

Results flagged for a closer look

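In 6 of 126 groups of 4 or 5 libraries tested, the highest library stood apart from the others by Dixon's criterion, where chance gives about 1 in 20. They were Jund in Dounce-Input (mouse 179, 123 CPM), Fosl2 in Cell(-)-TRAP (mouse 1362, 79.6 CPM), Atf3 in Tissue-TRAP of the preparation comparison (mouse 946, 10.6 CPM), Fosl2 in FACSAria-Input (mouse 992, 75.4 CPM), Atf3 in autoMACS-Input (mouse 72, 1934 CPM) and Jund in Cell-TRAP (mouse 947, 1569 CPM).

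The difference between the TRAP and Input changes passed the edgeR interaction test for 13 pairs of gene and comparison. From Tissue to Cell, TRAP rose more than Input for Fos by 2.61, Jun by 1.99, Junb by 1.77, Fosb by 1.68, Atf3 by 1.41 and Jund by 1.39 on the log2 scale. With the inhibitors, the change in TRAP minus that in Input was -1.62 for Jun and -1.52 for Jund. From Tissue to Dounce it was 2.20 for Junb, 1.65 for Jun, 1.17 for Jund, -1.03 for Fos and -1.66 for Fosb.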

How the results depend on the processing

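Scaling to microglial markers lowered the median of all genes by 1.99 (Cell), 2.06 (Cell(+)) and 1.70 (Dounce) on the log2 scale against Tissue-TRAP, and turned the direction of Fosl2 in Cell-TRAP (-1.98), of Jun (-1.54), Junb (-1.15) and Atf3 (-0.66) in Cell(+)-TRAP and of Junb (-0.53) and Atf3 (-0.88, not called on either scale) in Dounce-TRAP, all against Tissue-TRAP. It moved the members called from 2 to 6 in Cell(+)-TRAP against Tissue-TRAP and from 1 to 0 in Dounce-TRAP against Cell(+)-TRAP. The mouse block, fitted to only the groups compared, moved the inhibitor difference between TRAP and Input from 2 to 5 members and TRAP against Input in Cell(+) from 1 to 2. It also changed the call of Jund in Cell-Input against Tissue-Input and in TRAP against Input in Cell(-) and Dounce, and no other call. Fitting only the groups compared, without the block, gave the same change in Cell(+). It likewise added Fos to the inhibitor difference and Jund to TRAP against Input in Cell(-) and Dounce. At least 10 counts in every library, which left Fosb untested in preparation TRAP, Atf3 in preparation Input and both in the preparation fit of both fractions, gave 3 in place of 5 for TRAP against Input in Cell(-) and in Dounce, and for the Dounce against Tissue change, where Fosb was untested and Jund lost (0.85). TRAP against Input in Tissue went from 1 to 0 with DESeq2 size factors, with that filter and with only the groups compared. DESeq2 size factors moved the median of all genes in Cell-TRAP against Tissue-TRAP by -0.33.

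Leaving out 1 library, or in the fits of both fractions the TRAP and Input libraries of 1 mouse in a preparation, gave 2 to 3 members in Cell(+) against Tissue in each fraction, 2 to 4 in Dounce-Input and 3 to 5 in Dounce-TRAP against Tissue, 0 to 1 in Dounce-TRAP against Cell(+)-TRAP, 6 to 7 against Cell(-)-TRAP, 3 to 5 for the Dounce against Tissue change and for TRAP against Input in Dounce, 0 to 1 for sorts against Cell-TRAP and for TRAP against Input in Tissue, and 5 to 6 for the Cell against Tissue change. Over single members it kept direction and side of the threshold in 1082 of 1120 values, and 0 reversed. The rises in Cell and Cell(-) and the falls with the inhibitors of Fos, Fosb, Jun, Junb and Atf3 in TRAP were called under each alternative in which the gene was tested. The cause of the other changes was not tested.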
